A study of Mus musculus with 18 samples.

Results

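The genes of the cytosolic ribosome were described here across the RNA-sequencing data of mouse small cell lung cancer (SCLC) cells in which p53 can be switched back on. Rows were kept whose symbol is Rps or Rpl followed by a number and at most 1 letter, or is Rplp0, Rplp1, Rplp2 or Rpsa, and that reached 1 TPM, a transcript's abundance per length on a scale that sums to 1000000 in each sample, in at least 3 of 18 samples. Of 82 rows with such a name among 25239 genes, 76 passed: 30 small-subunit genes, 44 large-subunit genes including the P-stalk, and the paralogs Rps27l and Rpl32l. The rule uses symbols and levels, not a difference between groups.

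The samples came from 3 tumor-derived lines, 4711-1, 4711-18 and 4716-11, of the class that the study calls Type D because p53 restoration kills them by necrosis. Every group carried Cre-deleted Rb1 and Rbl2 and Rosa26 FlpO-ER, a recombinase active only with 4-hydroxytamoxifen (4-OHT). Cre had also turned the Trp53 XTR/XTR alleles, which are expressed, into the trapped TR state. FlpO removes the trap and restores expression. Cells selected for a lentiviral sgRNA, either sgBgal as the control or sgPpia#3.2 or sgPpia#4.1 against Ppia (the gene for cyclophilin A), received vehicle (Control) or 4-OHT (Restored) for 72 h. Each of the 6 groups therefore held 3 samples, 1 per line. No group received 4-OHT without a restorable Trp53, so effects of the drug and of p53 cannot be told apart in these samples. Each line stems from 1 tumor, sgRNA-selected cells were pools in which the study still saw some cyclophilin A, and the labels state no separate cultures within a line, so p-values measure the spread between these samples.

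Ribosomal proteins coat and shape the ribosomal RNA of a small subunit, which reads the mRNA, and a large subunit, which joins amino acids. Nearly all of their mRNAs begin with a 5′ terminal oligopyrimidine (TOP) tract, a stretch of C and T through which mTORC1 signaling controls their translation together. The pathway also touches p53: free RPL5 and RPL11, bound to 5S RNA, block MDM2, the ligase that degrades p53.

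The targeted genes were read first. Trp53, trapped or restored, lay between 5.45 and 8.41 TPM in Control and between 181 and 236 TPM in Restored samples. Ppia averaged 2709 ± 137 TPM (SD, n = 3) in sgBgal Control cells, 979 ± 287 with sgPpia#3.2 and 1783 ± 147 with sgPpia#4.1. After restoration Ppia ran from 1551 to 2730 TPM with sgBgal, 769 to 1233 with sgPpia#3.2 and 1191 to 1765 with sgPpia#4.1, so the last overlapped sgBgal. In limma the sgPpia#3.2 differences had adjusted p of 0.472 (Control) and 1 (Restored), or 0.00153 and 0.0431 with the cell line as a block, and those of sgPpia#4.1 did not pass in either fit. Transcript of the Cre-targeted genes remained, with Rb1 at 3.36 to 9.44 TPM in Control and 14.6 to 30.8 TPM in Restored samples and Rbl2 at 1.98 to 4.14 and 3.89 to 6.66 TPM. Gene-level TPM do not show whether the deleted exons were read. Of the 8 neuroendocrine markers examined, Chga, Chgb and Calca were among 4 that stayed below 1 TPM in every sample, while Ncam1 (6.9 to 29.7 TPM) and Syp (3.03 to 7.12 TPM) were present. All 6 fibroblast markers were below 1 TPM, and the 4 endothelial markers summed to at most 1.51 TPM. The 6 lung epithelial markers summed to 2.2 to 49.1 TPM in Control and 2.06 to 9.25 TPM in Restored samples, with Sftpb up to 45.1 TPM. The summed immune markers moved with p53, from 3.54 to 7.73 TPM in Control to 23.4 to 43.3 TPM in Restored samples, mostly through Cd68, while the leukocyte gene Ptprc never exceeded 0.0814 TPM. TPM carry no read totals, and relative depth, read from the smallest steps between low values, ranged from 1 to 1.775. The part of these markers in the results was not tested.

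The ribosomal protein genes took a smaller part of the transcriptome once p53 was restored. In sgBgal cells they held 13.8, 12.9 and 14.6% of all TPM in Control cells of 4711-1, 4711-18 and 4716-11, and 11.1, 8.58 and 11.0% in the Restored cells. With sgPpia#3.2 the shares were 15.2, 15.5 and 16.1% in Control and 12.2, 10.8 and 12.2% in Restored cells. With sgPpia#4.1 they were 13.9, 14.7 and 15.8% in Control and 10.9, 9.83 and 11.5% in Restored cells. The 9 Restored samples all lay below the 9 Control samples, and each fell below the Control sample of its own line and sgRNA.

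**Figure D1:**
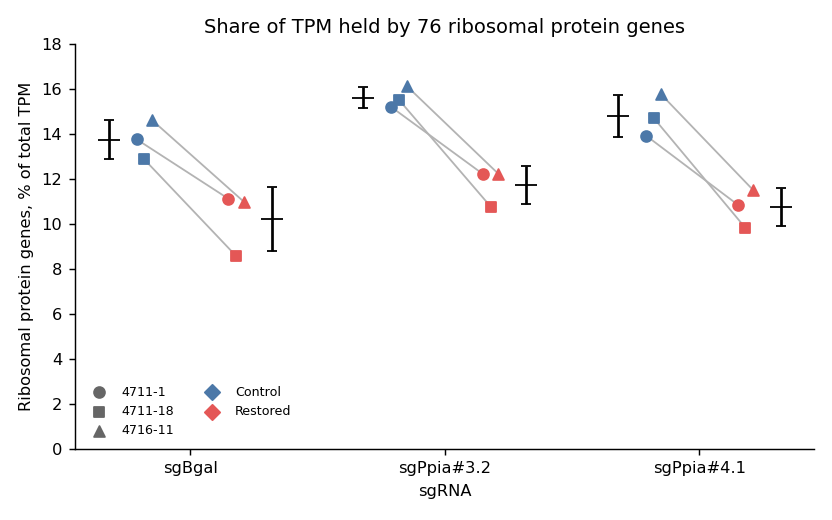
The share of total TPM held by the 76 ribosomal protein genes (percent, vertical axis) is plotted for each sgRNA, with blue symbols for Control, red symbols for Restored, 1 symbol shape per cell line and a grey line joining each pair. Black bars give the mean ± SD of 3 lines, and every line slopes down, from 12.9 to 16.1% in Control to 8.58 to 12.2% in Restored samples.

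The share thus dropped to between 66.7 and 80.8% of its Control value across the 9 pairs. Averaged over the 3 sgRNAs, the difference was -2.90 percentage points in 4711-1, -4.64 points in 4711-18 and -3.92 points in 4716-11, with a mean of -3.82 ± 0.876 points (SD, n = 3 lines). Both subunits contributed: small-subunit genes held 4.95 to 6.15% in Control and 3.23 to 4.75% in Restored samples, and large-subunit genes 7.89 to 9.96% and 5.29 to 7.42%. In this bulk RNA, fewer cells of a kind and less RNA per cell cannot be told apart. Restored samples were also the shallower ones by the median (relative depth 1.302 against 1.561 in Control). In 2 of the 9 pairs, both in 4711-18, the Restored library was the deeper one: 1.308 against 1.179 with sgPpia#3.2, where the share differed by -4.75 points, and 1.081 against 1.069 with sgPpia#4.1, where it differed by -4.88 points. The part of depth in the fall was not tested.

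Because TPM sum to a fixed total in every sample, a smaller ribosomal share raises the values of all other genes. The median gene outside the group had a log2 fold change (Restored over Control, mean of 3 sgRNAs) of 0.17 as deposited. It was 0.12 when those other genes were rescaled to a fixed total of their own, and -0.0024 with median-of-ratios scaling. The ribosomal protein genes themselves had medians of -0.44, -0.50 and -0.64 under these scalings. All fold changes that follow are on the deposited scale, as log2(TPM + 1), against a median of 0.17 over all 12828 genes tested.

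Most members were lower by a modest amount in Restored cells. With limma over all 12828 genes (Benjamini-Hochberg adjusted p under 0.05), 59 of the 76 members were lower and 1 was higher in the mean over the 3 sgRNAs, against 11.2% lower and 27.9% higher among all genes tested. This fit counts the 3 sgRNA samples of a line as separate samples, although they come from the same cells. Adjusted p-values of single genes come from it unless the block is named. Without 4716-11, 31 were lower, against 6.67% of all genes. When cell line entered the fit as a replicate block, 68 were lower and 1 higher, against 19.3 and 44.1% of all genes. Requiring in addition a 2-fold change in either direction left 0 members lower (2.56% of all genes) and 1 higher (6.37%), and the same 2 counts with the replicate block (2.77 and 6.8% of all genes), while 64 members (84.2%) had an unadjusted p under 0.05, as did 47.8% of all genes. The members' log2 fold changes ran from -0.89 to 1.48 with a median of -0.44. By subunit, 22 of 30 small-subunit genes (median -0.45) and 36 of 44 large-subunit genes (median -0.44) were lower.

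Non-overlap gave the same direction. In 24 of the 76 members every Restored sample lay below every Control sample, a pattern held by 3.06% of all genes tested, and 57 members were lower in all 9 pairs of line and sgRNA (12.8% of all genes). In 1 member, Rps27l, every Restored sample lay above every Control sample (8.12% of all genes).

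**Figure D2:**
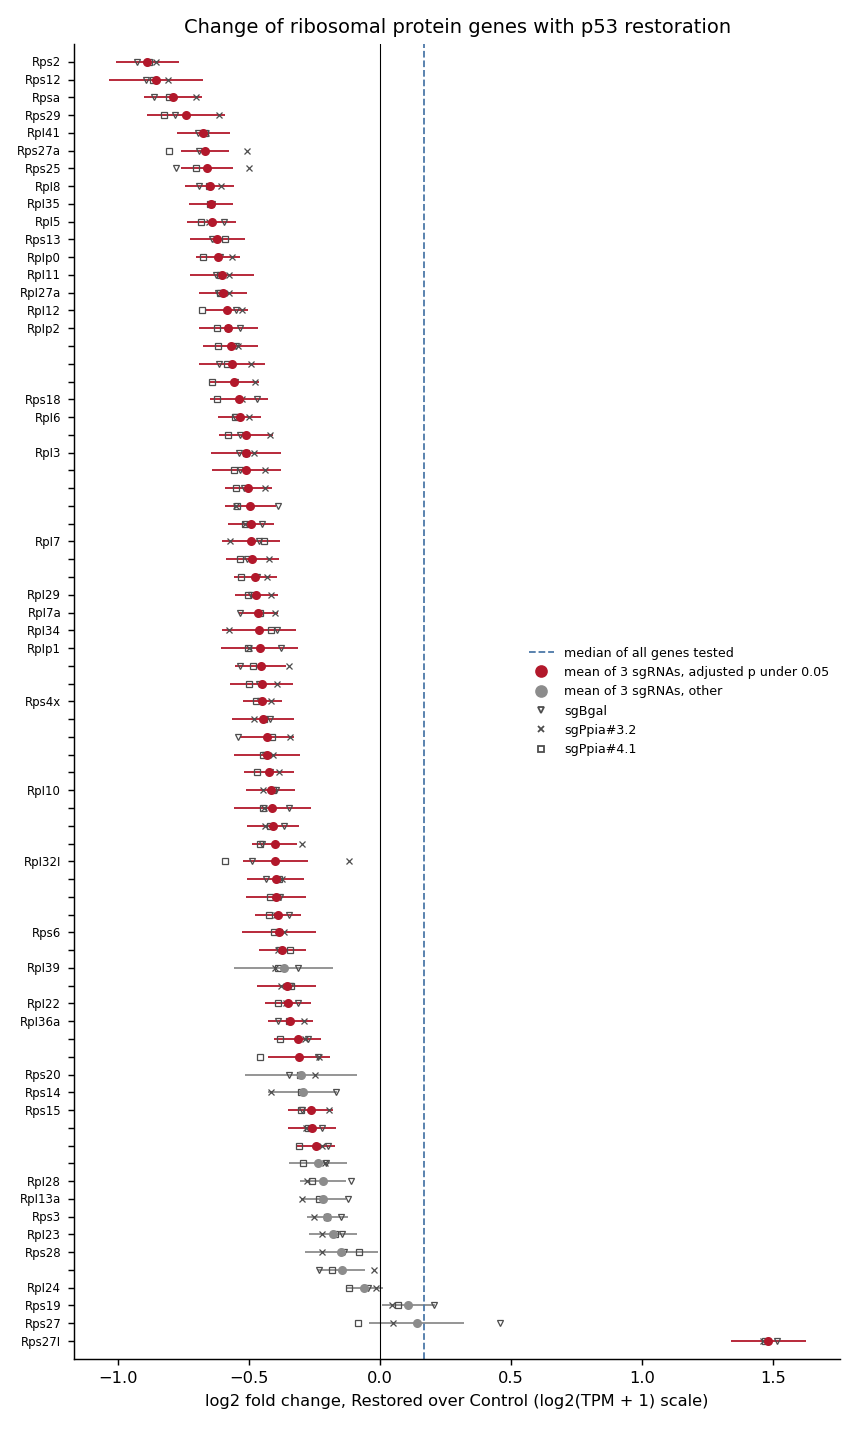
The log2 fold change of 73 of the 76 ribosomal protein genes (Restored over Control, log2(TPM + 1) scale, horizontal axis) is shown in rank order with names for those described in the text, with circles and bars for the mean over 3 sgRNAs ± SE, red where the adjusted p was under 0.05, and small symbols for each sgRNA. From Rps2 at -0.89 to Rps27 at 0.14 the genes form an unbroken slope left of or near 0, and Rps27l stands alone at 1.48; the dashed line is the median of all genes at 0.17.

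Among small-subunit genes the largest falls were in Rps2, Rps12, Rpsa and Rps29. Rps2, a protein of the mRNA entry channel, had 4702, 6680 and 7128 TPM in sgBgal Control cells and 3139, 2948 and 3505 TPM in the Restored cells of the same lines. With sgPpia#3.2 it went from 5950, 5517 and 5696 to 2856, 3069 and 3600 TPM, and with sgPpia#4.1 from 4590, 7897 and 7359 to 3183, 3377 and 3960 TPM. No Restored value reached the lowest Control value, and the log2 fold change was -0.89 ± 0.12 (SE, adjusted p = 5.11e-05).

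Rpsa, which sits on the solvent side of the small subunit and doubles as the laminin receptor precursor, ranged from 2630 to 3525 TPM (median 3091) in Control and from 1279 to 2200 TPM (median 1930) in Restored samples. The ranges did not overlap, and the log2 fold change was -0.79 ± 0.11 (adjusted p = 7.08e-05). Rps12 ranged from 1141 to 2546 TPM (median 1626) in Control and from 589 to 1354 TPM (median 932) in Restored samples. Its ranges overlapped because the lines differ in level, with 1634, 1000 and 1346 TPM on average in 4711-1, 4711-18 and 4716-11, yet it fell in 9 of 9 pairs (log2 fold change -0.86 ± 0.18, adjusted p = 0.00168). Rps29 showed the same kind of overlap, at 539 to 875 TPM in Control and 281 to 591 TPM in Restored samples (log2 fold change -0.74 ± 0.15, adjusted p = 0.00119). Rps27a, which is made as a fusion with ubiquitin, went from 727 to 965 TPM down to 428 to 621 TPM with no overlap (log2 fold change -0.67 ± 0.093, adjusted p = 6.24e-05), and Rps25, which viral internal entry sites need, had a log2 fold change of -0.66 ± 0.10 (adjusted p = 0.00013).

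Rps6, the substrate by which S6 kinase activity is usually followed, changed less. It ranged from 1125 to 1828 TPM (median 1685) in Control and from 860 to 1489 TPM (median 1267) in Restored samples, so the groups overlapped. The log2 fold change was -0.39 ± 0.14 (adjusted p = 0.0432), lower in 9 of 9 pairs.

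**Figure D3:**
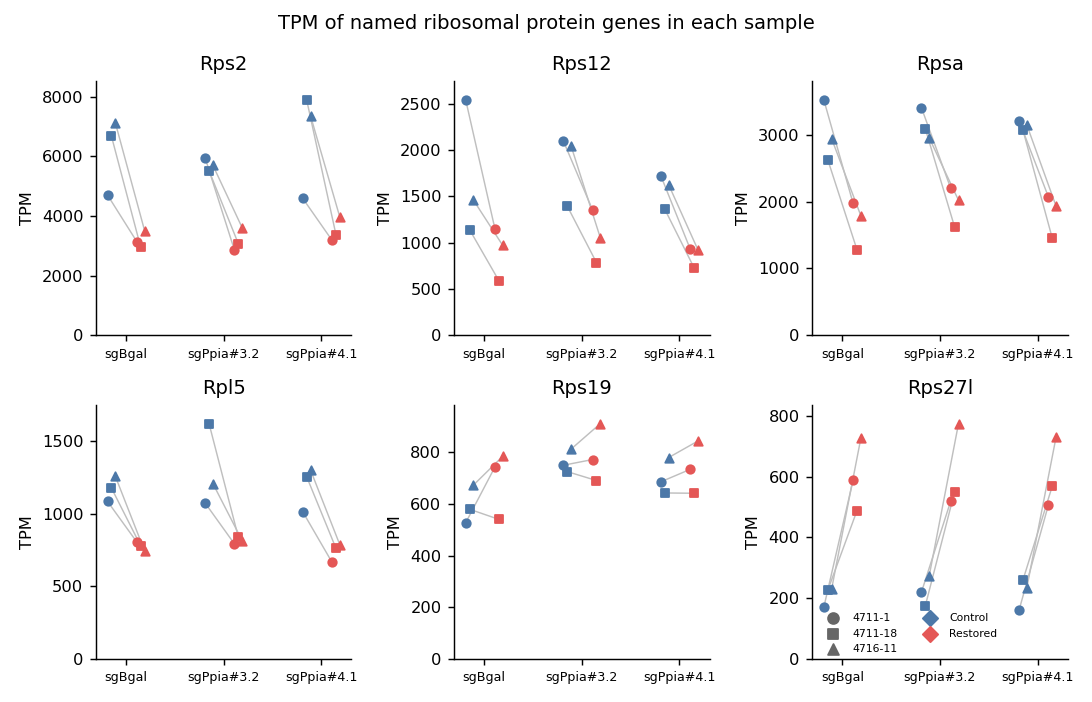
TPM (vertical axes, from 0) of 6 ribosomal protein genes are plotted by sgRNA, with blue symbols for Control, red for Restored, 1 symbol shape per cell line and grey lines joining pairs. Rps2, Rps12, Rpsa and Rpl5 fall in each of the 9 pairs, Rps19 stays between 527 and 912 TPM across both states, and Rps27l rises in each pair.

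On the large subunit, Rpl5 and Rpl11, which carry 5S RNA into the ribosome and can block MDM2, both fell. Rpl5 ranged from 1014 to 1623 TPM (median 1208) in Control and from 666 to 840 TPM (median 787) in Restored samples. Rpl11 ranged from 809 to 1316 TPM (median 992) in Control and from 462 to 786 TPM (median 710) in Restored samples. Neither gene's ranges overlapped, and the log2 fold changes were -0.64 ± 0.093 (adjusted p = 8.75e-05) for Rpl5 and -0.61 ± 0.12 (adjusted p = 0.00135) for Rpl11.

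The P-stalk, the flexible arm that recruits elongation factors, consists of Rplp0, Rplp1 and Rplp2. Rplp0 ranged from 2424 to 3013 TPM in Control and from 1519 to 2192 TPM in Restored samples without overlap (log2 fold change -0.62 ± 0.084, adjusted p = 5.28e-05). Rplp2 did not overlap either, at 1367 to 2053 TPM against 775 to 1356 TPM (log2 fold change -0.58 ± 0.11, adjusted p = 0.00106). Rplp1, the most abundant member with a mean of 5024 TPM, overlapped between the states (4182 to 7001 TPM against 2835 to 5304 TPM), with a log2 fold change of -0.46 ± 0.15 (adjusted p = 0.023).

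Among other large-subunit genes, Rpl41, whose product is the shortest ribosomal protein, fell from 3056 to 4233 TPM to 1728 to 2806 TPM (log2 fold change -0.68 ± 0.10, adjusted p = 0.00012). Rpl8, near the catalytic center, and Rpl35, at the mouth of the exit tunnel, had log2 fold changes of -0.65 ± 0.094 and -0.65 ± 0.084 (adjusted p = 9.07e-05 and 3.64e-05). Rpl23, another ribosomal protein that can bind MDM2, had 797 to 1070 TPM in Control and 699 to 1060 TPM in Restored samples, and its log2 fold change of -0.18 ± 0.091 did not pass (adjusted p = 0.132), though it did with the replicate block (adjusted p = 0.0116). Rpl22, which is mutated in some cancers, ran at 98.9 to 153 TPM against 76.4 to 118 TPM (log2 fold change -0.35 ± 0.087, adjusted p = 0.0052).

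A total of 16 members did not pass in the mean over the 3 sgRNAs. Of these, 9 passed as lower with the replicate block, among them Rpl13a, Rpl23, Rpl39, Rps3, Rps14 and Rps20, and 7 passed in neither fit, among them Rpl24, Rps19, Rps27 and Rps28. Rps19, the gene most often mutated in Diamond-Blackfan anemia, had 527 to 813 TPM against 541 to 912 TPM, higher in 6 of 9 pairs (log2 fold change 0.11 ± 0.10, adjusted p = 0.437). Relative to a median-of-ratios scaling the signs of Rps19 and Rps27 turn, to -0.093 and -0.042.

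The members did not fall by equal amounts. When each sample was rescaled so that the members' sum was constant, and line was kept as a replicate block, 14 members were lower than that common sum and 17 higher, against 6.69% lower and 74.1% higher among all genes on this scale. Without the block 4 were lower (Rps2, Rps12, Rpsa and Rpl41) and 11 higher, against 3.89 and 59.2% of all genes. The 14 lower ones with the block were Rps2, Rps12, Rpsa, Rps29, Rpl41, Rps27a, Rps25, Rpl8, Rpl35, Rpl5, Rps13, Rplp0, Rpl11 and Rpl27a. The 17 higher ones with the block included Rps27l, Rps19, Rpl24, Rps3 and Rpl23, with Rps19 at 0.54 and Rps2 at -0.45 (log2 fold change against the constant sum). This scaling shows unequal change within the group and says nothing about which genes stayed constant.

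The paralog Rps27l was the exception to the fall. RPS27L closely resembles RPS27 and is a known transcriptional target of p53. Rps27l had 170, 226 and 231 TPM in sgBgal Control cells of 4711-1, 4711-18 and 4716-11 and 589, 489 and 729 TPM in the Restored cells. With sgPpia#3.2 it went from 220, 175 and 274 to 520, 551 and 776 TPM, and with sgPpia#4.1 from 160, 260 and 235 to 506, 569 and 732 TPM. All Restored values exceeded all Control values. The log2 fold change was 1.48 ± 0.14 (adjusted p = 2.05e-06) in the mean and 1.52, 1.46 and 1.47 with sgBgal, sgPpia#3.2 and sgPpia#4.1.

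Rps27 itself was among the lowest rows of the group, at 5.84 to 12.4 TPM in Control and 4.53 to 15.1 TPM in Restored samples, with overlapping groups (log2 fold change 0.14 ± 0.18, adjusted p = 0.577). The near-identical sequences of such copies can be split or lost in counting, so the level of Rps27 beside Rps27l is uncertain. The same holds for Rpl34, at 7.25 to 18.1 TPM, and Rpl32l, at 0.64 to 2.79 TPM, the other low members. Below the level rule were Rpl30 (0.06 to 0.77 TPM), Rpl26, listed at 0 in all 18 samples although every ribosome uses it, and the restricted paralogs Rpl3l, Rpl10l, Rpl39l and Rps4l. Their common counterparts were abundant, and log2 fold changes were -0.51 ± 0.14 for Rpl3, -0.42 ± 0.094 for Rpl10, -0.45 ± 0.074 for Rps4x (adjusted p = 0.00772, 0.00278 and 0.000266) and -0.37 ± 0.19 for Rpl39 (adjusted p = 0.135). A pseudogene row, Rps18-ps4, exceeded Rps18 in level (mean 1053 against 561 TPM) and had a similar log2 fold change (-0.60 against -0.54). Adding the pseudogene rows and the ribosomal protein genes with other names to the share gave a difference of -4.05 points in place of -3.82.

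The start of the gene was examined next, since the TOP tract lies there. RefSeq windows of build GRCm38.p6, 250 bases before to 50 bases after an annotated start, were found for 57 of the 76 members, 1 start per gene. The 30 bases centered on the start are printed for the 5 members with the largest falls that have a window, then for Rps27l, Rps27 and Rps19 at the other end, each 5′ to 3′ on the strand of the gene with its longest run of C or T in capitals.
Rps2 (chr17:24720048-24720077, plus strand): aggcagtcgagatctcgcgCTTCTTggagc
Rps12 (chr10:23787195-23787224, minus strand): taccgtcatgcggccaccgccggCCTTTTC
Rpsa (chr9:120127751-120127780, plus strand): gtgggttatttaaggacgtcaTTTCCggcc
Rpl41 (chr10:128549154-128549183, minus strand): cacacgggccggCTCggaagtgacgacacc
Rps25 (chr9:44407699-44407728, plus strand): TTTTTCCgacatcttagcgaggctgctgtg
Rps27l (chr9:66946071-66946100, plus strand): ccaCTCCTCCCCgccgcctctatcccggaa
Rps27 (chr3:90213634-90213663, minus strand): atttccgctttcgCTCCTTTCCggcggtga
Rps19 (chr7:24884577-24884606, plus strand): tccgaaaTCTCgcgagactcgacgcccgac

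Pyrimidine runs were found at both ends of the ranking. The longest run had 6 bases in Rps2, 7 in Rps12, 5 in Rpsa, 3 in Rpl41 and 7 in Rps25, against 9 in Rps27l, 9 in Rps27 and 4 in Rps19. Counted from the annotated start, these runs began at positions 5, 9, 7, -3 and -15, and at -12, -2 and -8. None began at the annotated start itself, where a TOP tract would begin, so these are not TOP tract lengths. The Rps25 run touches the first base of the 30-base window and the Rps12 run the last, so either may be cut short. A run of at least 7 bases lay in the window of 30 of the 57 members (52.6%), compared with 18.5% of the 27025 genes with a window. The letters CCGGAAG, the core read by ETS factors, were found on either strand of the full window in 38.6% of the members and 9.12% of all genes. AAGATGG, part of the YY1 motif, was in 14% against 6.48%, and TATAAA in 10.5% against 14.2%, each on either strand. CCGGAAG and AAGATGG can overlap by the letters AAG. A match is a description of these letters, and annotated starts can differ from the ones used in these cells.

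The fall was of similar size with each sgRNA. Taken singly, 20 members were lower with sgBgal (3.96% of all genes), 13 with sgPpia#3.2 (2.39%) and 21 with sgPpia#4.1 (3.14%), and Rps27l was the 1 member higher in each (9.86, 7.62 and 7.16% of all genes). With the replicate block these counts were 54, 53 and 57 (12, 8.86 and 10.8%) for lower and 1 each for higher (30.2, 25.3 and 24.3%). When only the 6 samples of a comparison entered the fit, 0, 0 and 0 were lower, against 1.8, 0.437 and 1.07% of all genes. The 2-fold requirement left 0 lower (2.17, 1.31 and 1.79%) and Rps27l higher (5.46, 4.44 and 4.3%) with each sgRNA, also with the replicate block (3.32, 2.21 and 2.92% lower, 7.7, 6.4 and 6.26% higher). The medians were -0.44, -0.42 and -0.46. Lower with all 3 sgRNAs were 10 members, against 1.91% of all genes: Rpl5, Rpl6, Rpl8, Rpl12, Rpl27a, Rpl35, Rpl41, Rplp0, Rps2 and Rpsa. Leaving out 4711-1, 4711-18 or 4716-11 left 0 of the 76, against 0.405, 1.15 and 0.203% of all genes. With the replicate block 48 were lower with all 3 sgRNAs (7.06% of all genes), and 32, 27 and 2 without 4711-1, 4711-18 and 4716-11 (4.07, 5.19 and 1.66% of all genes). The single-sgRNA counts without 4716-11 were 0, 0 and 0 (1.1, 0.242 and 0.585% of all genes), or 13, 3 and 4 with the block (5.35, 2.25 and 3.27%).

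The order of the members was also alike. Across the 76 genes, Pearson r of the log2 fold changes was 0.93 between sgBgal and sgPpia#3.2 and 0.96 between sgBgal and sgPpia#4.1. It was 0.94 between the Ppia sgRNAs. Without Rps27l these values were 0.85, 0.93 and 0.87. Spearman rank correlations for the same comparisons were 0.83, 0.94 and 0.86, or 0.82, 0.94 and 0.85 without Rps27l. These comparisons share no sample but share the 3 lines, and genes are not independent replicates.

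The lines differed in how far the group fell. The median log2 fold change over the members, averaged over the sgRNAs, was -0.32 in 4711-1, -0.58 in 4711-18 and -0.41 in 4716-11, with 72, 74 and 70 of the 76 members lower. The lines also differed in level for single genes, most of all for Rps20, Rpl39 and Rps12. Rps20 averaged 383, 207 and 335 TPM in 4711-1, 4711-18 and 4716-11, and Rpl39 1644, 1405 and 2402 TPM, whereas Rpl29 (443, 445 and 437 TPM), Rpl12 and Rpl7a hardly varied between lines.

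Targeting Ppia was compared with sgBgal within each state, to ask whether cyclophilin A loss alters these genes or their response. No member passed in any of the 4 comparisons, in which 0% of all genes passed either way (limma). With the replicate block 0 members passed as well, against 0.0156% of all genes as lower with sgPpia#3.2 in Control, 0.0078% in Restored and 0% with sgPpia#4.1. At an unadjusted p under 0.05, 3 and 4 members were found with sgPpia#3.2 in Control and Restored cells and 0 and 0 with sgPpia#4.1, where 2.42, 1.2, 0.21 and 0.53% of all genes were. These 3 and 4 are 3.95 and 5.26% of the 76 members. With the replicate block the counts were 21, 21, 5 and 0 (27.6, 27.6, 6.58 and 0% of the members), against 12.7, 8.64, 1.26 and 3.31% of all genes.

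**Figure D4:**
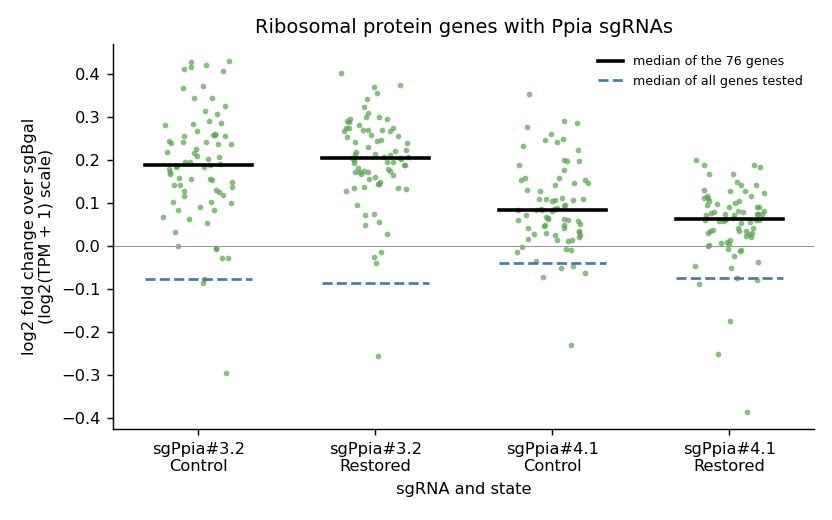
Each green point is 1 of the 76 ribosomal protein genes, placed by its log2 fold change over sgBgal (log2(TPM + 1) scale, vertical axis) for each Ppia sgRNA and state; points are spread sideways only for visibility. Black bars, the medians of the 76 genes, lie at 0.19, 0.21, 0.085 and 0.063, and dashed bars, the medians of all genes tested, lie at -0.076, -0.086, -0.040 and -0.074.

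The small differences nevertheless leaned one way. With sgPpia#3.2, 68 of 76 members had a positive log2 fold change in Control and 72 in Restored cells, where 36.1 and 33.7% of all genes were positive. With sgPpia#4.1, 66 and 63 were positive, against 37.1 and 32.4%. The share of total TPM was higher with sgPpia#3.2 in 3 of 3 lines, by 1.87 ± 0.680 points in Control and 1.51 ± 0.597 points in Restored cells (SD, n = 3). With sgPpia#4.1 it differed by 1.05 ± 0.843 points in Control and by 0.507 ± 0.758 points in Restored cells, where 4711-1 went the other way (-0.261 points). The median over the members was largest in 4711-18, at 0.28 and 0.33 with sgPpia#3.2 and 0.18 and 0.20 with sgPpia#4.1, and was -0.021 and -0.024 in 4711-1 with sgPpia#4.1. The sgPpia comparisons share the sgBgal samples of each state, so they are not independent of each other. Relative depth in Control cells with sgBgal, sgPpia#3.2 and sgPpia#4.1 was 1.087, 1.775 and 1.725 in 4711-1, 1.281, 1.179 and 1.069 in 4711-18, and 1.568, 1.71 and 1.561 in 4716-11, so the Ppia libraries were the shallower ones in 4711-18. In Restored cells it was 1, 1.649 and 1.483 in 4711-1, 1.032, 1.308 and 1.081 in 4711-18, and 1.472, 1.302 and 1.074 in 4716-11, so there they were the deeper ones in 4711-18. The part of depth in these differences was not tested.

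By unadjusted p without the replicate block, the leading members with sgPpia#3.2 were Rpl28 and Rps15. Rpl28 had a log2 fold change of 0.41 ± 0.15 with sgPpia#3.2 in Control cells (unadjusted p = 0.0177) and Rps15 one of 0.37 ± 0.15 in Restored cells (unadjusted p = 0.0273), and neither passed adjustment. With the block the order in Control cells changed, to Rpl39 (unadjusted p = 0.00203), Rps19 (0.00446) and Rpl28 (0.00896), and Rps15 stayed first in Restored cells (0.0034). The interaction term tests whether the change from Control to Restored cells differed from that with sgBgal. It called 0 members and 0 genes for either Ppia sgRNA in both fits. At an unadjusted p under 0.05 it found 0 members, against 31 and 18 of all genes, or 175 and 80 with the replicate block. The median interaction over the members was 0.025 for sgPpia#3.2 and -0.033 for sgPpia#4.1, and for Rps27l the terms were -0.057 ± 0.35 and -0.045 ± 0.35.

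The rest of the translation apparatus was read from lists of known genes, each for restoration in the mean over the sgRNAs. Over all genes tested the median was 0.17, 11.2% were lower and 27.9% higher, or 19.3 and 44.1% with the replicate block. Of 7 tested ribosomal protein genes with other names, 5 were lower (71.4%) and 0 higher, among them Rps3a1 (-0.39 ± 0.10), Rack1 (-0.33 ± 0.092), Rpl36al (-0.37 ± 0.098) and Rpl7l1 (-0.45 ± 0.14). Fau (-0.25 ± 0.20) and Rpl22l1 (0.11 ± 0.11) did not pass, and with the replicate block Fau was lower too (adjusted p = 0.009), which makes 6 of 7 (85.7%, against 19.3% of all genes). Their partners in the group, Rpl7 (-0.49 ± 0.11) and Rpl36a (-0.34 ± 0.088), were lower too (adjusted p = 0.00293 and 0.00642).

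Of 6 elongation factors 4 were lower (66.7%, against 11.2% of all genes) and 0 higher (against 27.9%), with a median of -0.36. Eif5a, which carries hypusine and keeps ribosomes moving through difficult sequences, went from 939 to 1796 TPM to 646 to 894 TPM (log2 fold change -0.89 ± 0.12, adjusted p = 4.94e-05). Eef1a1, which delivers aminoacyl-tRNA, missed the threshold (-0.35 ± 0.13, adjusted p = 0.0501) but passed with the replicate block (adjusted p = 0.00871; 5 of 6 lower, 83.3% against 19.3%), and Eef2 did not pass (0.093 ± 0.13, adjusted p = 0.617).

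A list of 18 genes joined initiation factors with TOP mRNAs. Of these, 7 were lower (38.9%, against 11.2% of all genes) and 2 higher (11.1%, against 27.9%), with a median of -0.22. Under the block 11 were lower (61.1%, against 19.3%) and 2 higher (11.1%, against 44.1%). Npm1 (-0.51 ± 0.095) and the cap-binding gene Eif4e (-0.62 ± 0.14) fell, whereas Pabpc1, the poly(A)-binding protein whose mRNA is itself a TOP mRNA, rose from 1320 to 1837 TPM to 2010 to 3135 TPM (0.67 ± 0.11, adjusted p = 0.000225). Eif4a2 rose as well (0.52 ± 0.12), and Tpt1, a TOP mRNA, had 0.046 ± 0.18.

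Genes of ribosome biogenesis had a median of -0.42. Of 48, 29 were lower (60.4%, against 11.2% of all genes) and 3 higher (6.25%, against 27.9%). Under the block 36 were lower (75%, against 19.3%) and 4 higher (8.33%, against 44.1%). Dkc1, the pseudouridine synthase of small nucleolar particles, went from 57.4 to 92.3 TPM in Control to 21.6 to 41.7 TPM in Restored samples (-1.21 ± 0.12, adjusted p = 2.05e-06). Emg1 (-0.78 ± 0.092), Wdr43 (-0.75 ± 0.13), Grwd1 (-0.68 ± 0.099), Fbl, the methyltransferase fibrillarin (-0.55 ± 0.12), and Ncl, nucleolin (-0.60 ± 0.11), also fell. The 3 that rose were Utp20 (1.01 ± 0.11), Brix1 (0.86 ± 0.098) and Sbds (0.55 ± 0.15).

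**Figure D5:**
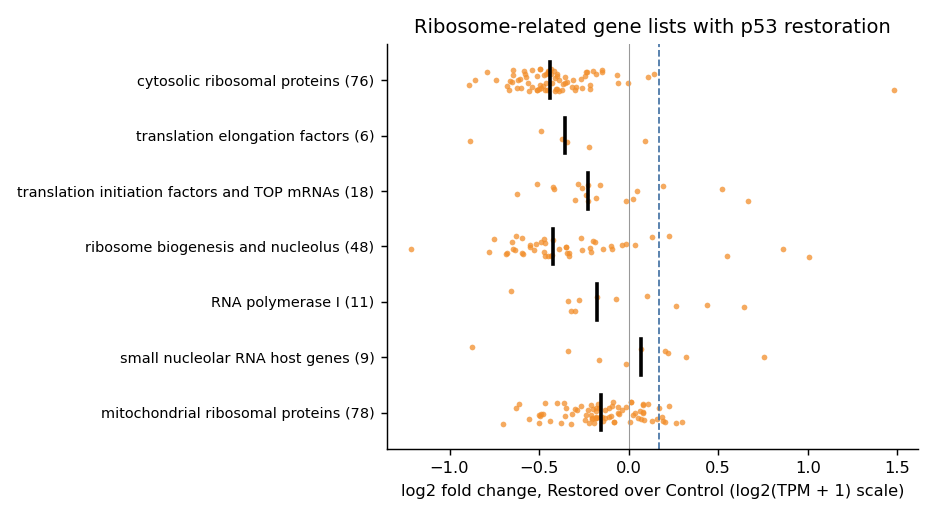
Each point is 1 gene placed by its log2 fold change (Restored over Control, mean over 3 sgRNAs, log2(TPM + 1) scale, horizontal axis) in the list named at left, with the number of genes tested in brackets and a black bar at the median. The medians of the cytosolic ribosomal proteins (-0.44) and of ribosome biogenesis (-0.42) lie left of those of mitochondrial ribosomal proteins (-0.15) and of small nucleolar RNA host genes (0.068), and the dashed line is the median of all genes (0.17).

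Mitochondrial ribosomal proteins, which serve the separate ribosome of that organelle, had a median of -0.15. Of 78, 11 were lower (14.1%, near the 11.2% of all genes) and 0 higher (against 27.9%). Under the block 34 were lower (43.6%, against 19.3%) and 7 higher (8.97%, against 44.1%). Their share of total TPM was 0.822% in Control and 0.749% in Restored samples on average. Mrpl50 (-0.70 ± 0.12), Mrpl12 (-0.63 ± 0.17) and Mrpl48 (-0.61 ± 0.15) had the largest falls among those that passed.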

How the data were processed

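The authors deposited TPM values for 25239 genes in 18 samples, each column summing to 1000000. Per the labels and processing notes, bcl2fastq 2.17 and HISAT2 were used, and both mm10 and GRCm39 are named; the counter and annotation are not given in the sources used here. Absolute depth is therefore unknown, and no counting interval was computed.

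Column names were matched to sample labels, and 0 columns were left unmapped. The 12828 genes that reached 1 TPM in 3 or more samples were tested on log2(TPM + 1) with limma 3.58.1 (R 4.3.3), with 1 mean for each of 6 conditions. A fold change on this scale understates that of low genes. Calls used an adjusted p under 0.05, alone or with a 2-fold change (1 on the log2 scale). The study required both. The second fit added the cell line as a replicate block: samples of 1 line share a number in the labels and come from the same cells. Their deviations from group means correlated in all 45 same-line pairs (mean r = 0.73, lowest 0.58). The 9 samples per state come from 3 lines, so the mean over sgRNAs counts sgRNAs of a line as samples. The script was tested on simulated data.

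Alternatives were a pseudocount of 0.1, no filter or a filter at 5 TPM, median-of-ratios scaling, other genes set to a fixed total, the members' sum held constant, the compared groups alone and leaving out each line. The scalings combined with the block were chosen after seeing the data. The members and lists were chosen with earlier results of these data known. Named members follow a rule: fixed names of known role (P-stalk, 5S particle, paralog pairs), the highest and lowest by level, the largest changes per comparison and the extremes of spread between lines; others were named after their values were seen, and a few genes are not reported here. Start windows came from RefSeq (GRCm38.p6), which may not be the build of the files, and were used only for sequence. Figures were drawn with matplotlib 3.10.9.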

Additional observations from a re-analysis of the deposited data

How the results depend on the processing

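Counts of members past both the adjusted p and the 2-fold change were 1 in each restoration comparison (mean, sgBgal, sgPpia#3.2, sgPpia#4.1). At adjusted p alone they were 60, 21, 14 and 22, with median-of-ratios scaling 3, 5, 2 and 3, and with that scaling and the replicate block 3, 6, 3 and 4. Leaving out 1 line gave 1 to 2 with sgBgal and with sgPpia#4.1. Members lower at adjusted p alone (59, 20, 13 and 21) were 4, 0, 0 and 0 with the members' sum fixed and 14, 5, 3 and 5 with that and the replicate block. For the 3 sgRNAs singly they were 33, 24 and 29 with median-of-ratios scaling, 54, 53 and 57 with the replicate block, 64, 67 and 69 with both, 58, 61 and 61 with the block and the other genes at a fixed total, and 0, 0 and 0 with the compared groups alone. Leaving out 1 line gave 31 to 50 for the mean, 0 to 3, 0 to 3 and 0 to 6 singly, and, with the replicate block and without 4711-1, 4711-18 or 4716-11, 44, 38 and 13 with sgBgal, 38, 37 and 3 with sgPpia#3.2 and 45, 39 and 4 with sgPpia#4.1. The lowest count was without 4716-11 in each, and these fits have fewer samples by construction.

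The median log2 fold change of the members (-0.44, -0.44, -0.42 and -0.46) was -0.64, -0.65, -0.62 and -0.64 with median-of-ratios scaling and, by construction near 0, -0.012, -0.0034, -0.0027 and 0.0046 with the members' sum fixed, with or without the block. For sgPpia#3.2 over sgBgal it was 0.28 in Control and 0.31 in Restored cells with median-of-ratios scaling, and 0.0044 and -0.0003 with the sum fixed. For sgPpia#4.1 in Control it was -0.022 with the sum fixed, and its interaction was 0.011 with median-of-ratios scaling. Signs turned with the sum fixed for Rpl24 (0.38), Rpl23 (0.26), Rpl36a (0.094), Rpl22 (0.081), Rpl39 (0.069), Rps6 (0.051) and Rpl10 (0.019), with median-of-ratios scaling for Rps19 (-0.093) and Rps27 (-0.042). No Ppia or interaction call appeared among members under any alternative run. TPM hide depth, low members such as Rps27 rest on few reads, and 3 lines set the precision.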

Other observations

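The machinery upstream of ribosome supply was not described above. Of 20 regulators of TOP mRNA translation and ribosome supply, 6 were higher (30%) and 3 lower (15%) in Restored cells (limma, mean over 3 sgRNAs, adjusted p under 0.05), near the 27.9% higher and 11.2% lower among all genes. With the replicate block 6 were higher (30%, under the 44.1% of all genes) and 4 lower (20%, against 19.3%). Sesn2 and Ddit4, both restraints on mTORC1 that respond to stress, rose from 6.93 to 37.8 TPM to 58.6 to 202 TPM and from 56.6 to 584 TPM to 286 to 468 TPM (log2 fold changes 2.81 ± 0.33 and 1.60 ± 0.37), and the Ddit4 groups overlapped. The other 4 higher genes without the block were Rptor (0.67 ± 0.13), Tsc1 (0.53 ± 0.18), Tsc2 (0.50 ± 0.14) and Mtor (0.43 ± 0.13). Mycl fell from 1.54 to 9.54 TPM to 0.237 to 1.77 TPM (-1.69 ± 0.29), with Deptor (-0.86 ± 0.31) and Rps6kb1 (-0.29 ± 0.081), while Myc had 180 to 364 TPM against 160 to 344 TPM (-0.18 ± 0.20, adjusted p = 0.499).

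In the list of the 5S particle and p53 control, 5 of 9 tested genes were lower (Rpl5, Rpl11, Rrs1, Rpf2 and Cdkn2a, 55.6% against 11.2% of all genes) and 3 higher (Trp53, Mdm2 and Mdm4, 33.3% against 27.9%). With the replicate block the same counts stood against 19.3% lower and 44.1% higher among all genes. Trp53 was restored by design, Rpl5 and Rpl11 are members, and Rrs1 is also in the biogenesis list. These shares are therefore not a separate result. Rrs1 (-0.53 ± 0.082) and Rpf2 (-0.51 ± 0.097) load the 5S particle onto the large subunit, and Cdkn2a, which encodes p16 and p19ARF, had 1240 to 1789 TPM in Control and 787 to 1250 TPM in Restored samples (-0.50 ± 0.086). Mdm4 rose from 6.34 to 13.5 TPM to 24.9 to 43.7 TPM (1.77 ± 0.16).

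Of 11 RNA polymerase I genes, 1 was lower (Polr1b, -0.66 ± 0.10) and 2 higher (Rrn3, 0.64 ± 0.095, and Taf1c, 0.44 ± 0.11). These are 9.09 and 18.2%, under the 11.2 and 27.9% of all genes. With the replicate block 5 were lower (45.5%, against 19.3%) and 3 higher (27.3%, against 44.1%). Of 9 host genes of small nucleolar RNAs, 1, Snhg12, was higher (0.76 ± 0.23, adjusted p = 0.0156; 11.1% against 27.9%), and 3 were higher and 2 lower with the replicate block (33.3 and 22.2%, against 44.1 and 19.3%). Of 6 tested pseudogene rows of ribosomal proteins, 4 were lower (66.7%, against 11.2%) and 1, Rps19-ps3, was higher (0.58 ± 0.11; 16.7% against 27.9%).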
